A study of Glycine max with 5 samples.

Results

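The soybean array carried 17 probe sets for 8 genes of calcium signalling that are named as calmodulins or calcium-dependent kinases, out of 37593 soybean probe sets in all. They were chosen by name alone, as the probe sets whose single gene symbol in the array annotation begins with SCAM or CDPK, and no symbol beginning with CAM and a digit or hyphen was found among the 8677 probe sets with 1 symbol. The calmodulins were SCAM-1 to SCAM-5, with 14 probe sets, and the kinases were CDPK, CDPK-BETA and CDPK-GAMMA, with 1 probe set each. RNA of mature pollen (3 arrays) was compared with RNA of sporophytic tissues, the diploid plant body (2 arrays), both from soybean of the cultivar Bragg. Pollen was freed by rubbing anthers of glasshouse plants that had been brought to flower by shorter days, and pieces of anther were taken off. The sporophytic RNA came from seedlings aged 10 days and mixed several organs, given as stem, root and leaf in the methods, while the results text names both this mixture and one of leaf and stem. Both groups were untreated and unmodified plants, and mature soybean pollen holds a large vegetative cell with the generative cell inside it. All values are log2 signals after Robust Multiarray Averaging (RMA), so a step of 1 is a factor of 2, and all differences are pollen minus sporophytic tissues.

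Calmodulin is a small protein with EF-hand loops that bind calcium, after which it attaches to other proteins and alters their activity. Calcium-dependent protein kinases carry a calmodulin-like domain in the same chain as the kinase, so that calcium acts on them directly. In growing pollen tubes calcium is concentrated at the tip, where it guides secretion and the direction of growth. Among the soybean calmodulins, SCAM-1, SCAM-2 and SCAM-3 encode the conserved form that is nearly identical across plants, while SCAM-4 and SCAM-5 encode divergent forms that are known for their response to pathogens.

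The arrays themselves differed between the tissues. Median log2 signals ran from 4.11 to 4.24 for pollen and from 5.25 to 5.43 for sporophytic tissues, a shift of -1.15, and the median difference over all probe sets was -0.22. The pollen identity markers, a match to LAT59, a pollen phosphatase, a relative of the allergen Ole e 1 and RALF-LIKE 19, ran from 13.67 to 15.33 in pollen and from 2.01 to 2.90 in the sporophytic samples; the study had picked them on these arrays. Of 6 probe sets for the green tissue markers CAB3 and CA1, 3 were lower in pollen, all of CAB3, and over the 6 the signals ran from 2.35 to 9.36 in pollen and from 2.30 to 15.19 in sporophytic tissues. The CA1 probe set stayed between 2.47 and 2.52 on all arrays. A pair of CAB3 probe sets kept 8.40 to 9.36 on the pollen arrays, and both can take signal from several genes. The part of green tissue RNA in the results was not tested. The 2 sporophytic arrays had signals at least 2-fold apart for 20% of all probe sets.

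Among the calmodulins and kinases, both SCAM-1 probe sets and CDPK-BETA were higher in pollen and CDPK-GAMMA and CDPK were lower. SCAM-2, SCAM-3, SCAM-4 and SCAM-5 had no probe set past the threshold. With limma and p adjusted (Benjamini-Hochberg) across the whole array, 3 of the 17 probe sets were higher at an adjusted p under 0.05, 2 were lower and 12 did not pass. Over all probe sets of the array 18.9% were higher and 34.5% were lower, 53.4% in all, so calls were no more frequent among the 17 than on the array as a whole. The median difference of the 17 was 0.01, beside -0.22 over all. Their differences spanned -3.54 to 7.74. On 5 probe sets every pollen array lay above both sporophytic arrays and on 4 every pollen array lay below them, while 36.4% and 41.7% of all probe sets did so (78.1% in all). RNA was taken from whole pollen and from mixed organs, so fewer cells with a transcript and less transcript per cell cannot be told apart.

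**Figure D1:**
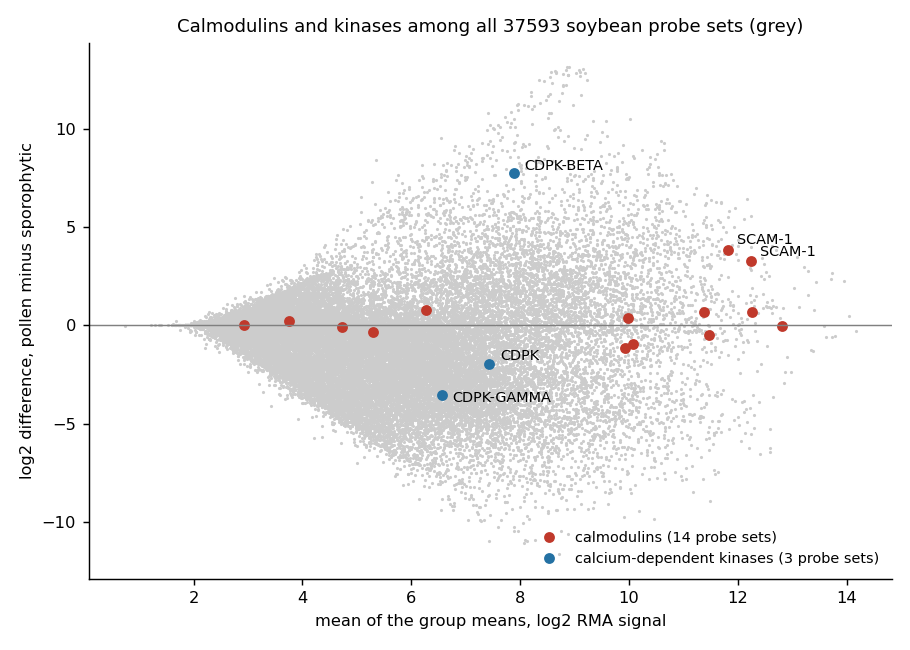
Difference between pollen and sporophytic tissues (vertical axis, log2) against the mean of both group means (horizontal axis, log2 RMA signal) for all 37593 soybean probe sets in grey, 14 calmodulin probe sets in red and 3 kinase probe sets in blue, with the 5 called probe sets named. CDPK-BETA stands at 7.74 and the SCAM-1 pair at 3.27 and 3.86, while the other calmodulins lie between -1.14 and 0.80.

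A signal of 100 on the linear scale, or 6.64 on the log2 scale, is one of the criteria by which the study's methods define pollen-specific genes, and it serves here as a mark for bright probe sets. It was reached on every pollen array by 10 of the 17 probe sets and on every sporophytic array by 11, against 17.4% and 29.8% of all probe sets. For 9 of the 17 it was reached on all arrays of both groups. These were the probe sets of SCAM-1 and SCAM-3 and all of SCAM-2 but one, so the conserved calmodulins were measured above this level in both tissues. CDPK-BETA passed it in pollen only, and CDPK and CDPK-GAMMA passed it in sporophytic tissues only. A further 4 probe sets stayed under it on all 5 arrays, and no difference of theirs passed the test.

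SCAM-1, one of the conserved calmodulins, was higher in pollen on both of its probe sets. The probe set Gma.6101.1.S1_at gave log2 signals of 13.95, 13.84 and 13.84 for pollen against 10.46 and 10.76 for sporophytic tissues. All pollen values thus lay above all sporophytic values, with gaps far wider than the spread within either group. The group means were 13.88 ± 0.06 (SD, n = 3) and 10.61 ± 0.21 (SD, n = 2), which differ by 3.27 with a standard error of 0.12 (adjusted p = 1.95e-04, limma) or 9.64-fold. The second probe set, GmaAffx.92868.1.S1_s_at, had 13.83, 13.68 and 13.74 in pollen and 9.97 and 9.81 in sporophytic tissues. This is 13.75 ± 0.08 (SD, n = 3) against 9.89 ± 0.11 (SD, n = 2), which differ by 3.86 with a standard error of 0.08 (adjusted p = 7.42e-05, limma) or 14.5-fold. Its name marks it as able to bind transcripts of several genes, so that it is not a separate measurement of SCAM-1 alone. Among all probe sets, these differences stood at the 95.6th and 96.6th percentile. The study's annotation matches both to CAM7 of Arabidopsis and lists them among transcripts higher in pollen.

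SCAM-2, whose protein is nearly the same as that of SCAM-1, had no probe set past the threshold in the test on the deposited values of all probe sets. The brightest, Gma.2196.1.S1_x_at, gave 12.78, 12.82 and 12.82 in pollen and 12.82 and 12.82 in sporophytic tissues, a difference of -0.01 with a 95% interval from -0.15 to 0.12. Only 2 distinct values were deposited for it over the 5 arrays, and this can narrow the interval. Of the 17 probe sets, 6 had a value that was shared by several arrays, against 25.9% of all probe sets. The probe set GmaAffx.91756.1.S1_at had 12.47, 12.69 and 12.68 against 12.44 and 11.41, and GmaAffx.11956.1.A1_at had 11.42, 11.86 and 11.90 against 11.19 and 10.89. Both had all pollen values above all sporophytic values. Each differed by 0.69, with 95% intervals from -0.30 to 1.67 and from 0.11 to 1.27 and adjusted p of 0.181 and 0.0562 from limma. Without sporophytic replicate 1 the former differed by 1.20 and without replicate 2 by 0.17, in fits that leave 1 sporophytic array. The latter passed without pollen replicate 1 (0.84, adjusted p = 0.0275, limma) and among probe sets with a signal of 100 or more (0.69, adjusted p = 0.0374). After quantile normalization it passed too (0.95, adjusted p = 0.00921, limma). The remaining pair differed by 0.39 (10.18 ± 0.27, n = 3, against 9.80 ± 0.32, n = 2) and by -0.32 (5.13 ± 0.33, n = 3, against 5.45 ± 0.47, n = 2, all SD), and the groups overlapped on both. After quantile normalization this pair passed at 0.93 and 1.00 (adjusted p = 0.03 and 0.0281, limma). Gma.2196.1.S1_x_at (-0.14) and GmaAffx.91756.1.S1_at (0.69) did not. On the deposited values of all 5 arrays no SCAM-2 probe set differed by as much as 1 log2 unit.

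SCAM-3, the third conserved form, had negative differences on its 3 probe sets that did not pass the test on the deposited values. They stayed negative after quantile normalization (-0.63, -0.48 and -0.24) and with any array left out, and equal array medians, which raise every difference by the same 1.15, brought them to 0 or above. Gma.1965.1.S1_at had 9.36, 9.42 and 9.29 in pollen and 11.07 and 9.93 in sporophytic tissues. The pollen values lay below both sporophytic values and close together, while the sporophytic arrays were 1.15 apart. The difference was -1.14 with a 95% interval from -2.22 to -0.07 and an adjusted p of 0.0734 from limma. Gma.1965.1.S1_x_at, which shares its target with the former, differed by -0.96 (interval from -1.97 to 0.05, adjusted p = 0.0956 from limma). The third, GmaAffx.92984.1.S1_s_at, had 10.90, 11.40 and 11.40 against 11.40 and 12.00, so the groups touched, and its difference was -0.46. Without sporophytic replicate 1 the first differed by -0.57, and without replicate 2 by -1.72. The second differed likewise by -0.42 and -1.50. These fits leave a lone sporophytic array, which is assumed to vary like the pollen arrays, so only their differences are given. When only probe sets with a signal of 100 or more were tested, the first (-1.14, adjusted p = 0.03, limma) and the second (-0.96, adjusted p = 0.0449) passed at unchanged differences. Across all probe sets and arrays, 0 of the 14 calmodulin probe sets passed limma's adjusted threshold as lower, beside 34.5% of all. At an unadjusted p under 0.05 it was 1 lower and 3 higher, beside 13828 lower and 8298 higher of all 37593 probe sets.

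**Figure D2:**
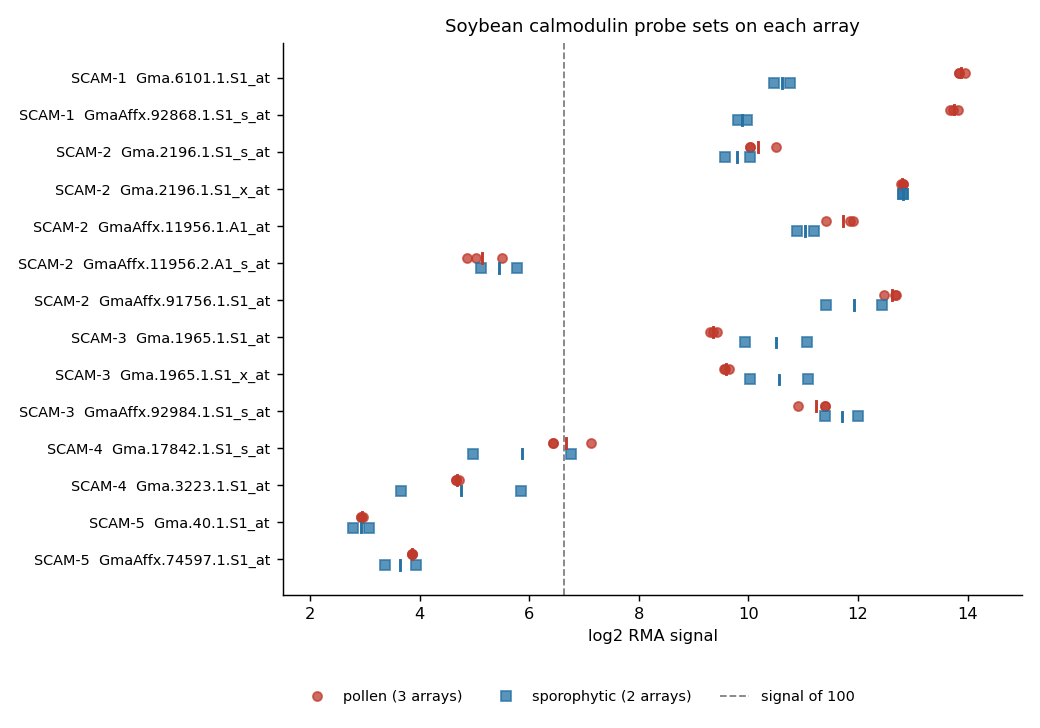
Log2 RMA signal (horizontal axis) of the 14 calmodulin probe sets, with pollen arrays as red circles (n = 3), sporophytic arrays as blue squares (n = 2), group means as short bars and a signal of 100 as a dashed line. The groups stand clearly apart on both SCAM-1 probe sets, at 13.68 to 13.95 in pollen and 9.81 to 10.76 in sporophytic tissues, while SCAM-5 and most SCAM-4 values lie under the dashed line.

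The divergent calmodulins SCAM-4 and SCAM-5 were dim in both tissues. For SCAM-4, Gma.3223.1.S1_at had 4.66, 4.72 and 4.67 in pollen and 5.85 and 3.67 in sporophytic tissues, so that the pollen values fell between the 2 sporophytic arrays. The difference of -0.08 had a 95% interval from -2.11 to 1.95, which is wide because the sporophytic arrays were 2.18 apart. Against sporophytic replicate 1 alone it was -1.17 and against replicate 2 alone it was 1.01, so the sign turned with the array left out. The other SCAM-4 probe set, Gma.17842.1.S1_s_at, had 7.12, 6.44 and 6.44 against 6.77 and 4.97, a difference of 0.80 (interval from -1.02 to 2.62). This difference became -0.10 without sporophytic replicate 2 and 1.70 without replicate 1. After quantile normalization it was 2.13 (adjusted p = 0.039, limma), and with equal medians 1.95 (adjusted p = 0.0417). On both SCAM-4 probe sets, sporophytic replicate 1 was the brighter sporophytic array. SCAM-5 had 3.86, 3.86 and 3.86 against 3.93 and 3.37 on GmaAffx.74597.1.S1_at and 2.94, 2.96 and 2.94 against 2.79 and 3.08 on Gma.40.1.S1_at. On the deposited values of all 5 arrays no difference of SCAM-5 was detectable at these levels. The 95% intervals ran from -0.33 to 0.74 and from -0.28 to 0.30. After quantile normalization the differences were 0.82 (adjusted p = 0.0134, limma) and 0.12 (adjusted p = 0.292). With equal medians, which add 1.15 to each, they were 1.36 and 1.16 and both passed. With sporophytic replicate 1 left out the differences were 0.49 and -0.13, and with replicate 2 left out -0.07 and 0.15, so both changed sign with the array.

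Within an array the calmodulin genes can be set against each other by how their ratio moves between the tissues. A shift common to a whole array cancels in such a ratio. Scaling that depends on the signal level does not cancel, and the contrasts were not recomputed under the other scalings. Averaged over its probe sets, SCAM-1 minus SCAM-2 was 0.04 ± 0.21 (SD, n = 2) for the sporophytic arrays and 3.32 ± 0.23 (SD, n = 3) for the pollen arrays, a shift of 3.28. For SCAM-1 minus SCAM-3 the shift was 4.42, from -0.67 ± 0.44 (SD, n = 2) to 3.75 ± 0.18 (SD, n = 3). For SCAM-2 minus SCAM-3 it was 1.14, from -0.71 ± 0.23 to 0.43 ± 0.08. The arrays did not overlap on any of these contrasts. Contrasts share genes, so they are not independent of each other. Over 13 such contrasts, 10 between calmodulins and 3 between kinases, the arrays were separate for 10, beside 78.1% of single probe sets over the array. Each of the 10 had an exact two-sided permutation p of 0.2, the smallest that 3 arrays against 2 can give. This test therefore cannot reach 0.05 with these arrays, and no other test was run on the contrasts. Any transcript that binds to probe sets of several calmodulin genes makes these shifts smaller or larger by an amount that was not measured.

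CDPK-BETA, a kinase whose best Arabidopsis match in the study's annotation is CPK4, had the largest difference of the 17 probe sets. Its probe set Gma.8417.1.S1_at had log2 signals of 11.55, 11.81 and 11.90 in pollen and 3.57 and 4.47 in sporophytic tissues. The pollen arrays were all bright and both sporophytic arrays were below a signal of 100. The means were 11.75 ± 0.18 (SD, n = 3) and 4.02 ± 0.64 (SD, n = 2), and they differ by 7.74 (standard error 0.32, 95% interval from 6.83 to 8.65, adjusted p = 2.78e-04 from limma). This corresponds to 213-fold, a figure that depends on the lowest values RMA gives. The difference lay at the 99.5th percentile of all probe sets, and it was between 7.29 and 8.89 in the 11 other fits.

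CDPK-GAMMA and CDPK went the opposite way. The isoforms beta and gamma are known as soybean kinases that differ in their sensitivity to calcium. Gma.8111.1.S1_at for CDPK-GAMMA had 4.55, 5.18 and 4.65 in pollen against 8.69 and 7.96 in sporophytic tissues. All pollen arrays thus lay below a signal of 100 and both sporophytic arrays above it. CDPK-GAMMA fell by 3.54 on the log2 scale (standard error 0.33, adjusted p = 0.00218 from limma), or 11.6-fold, from 8.33 ± 0.52 (SD, n = 2) to 4.79 ± 0.34 (SD, n = 3). The difference was nearly the same with weighted arrays (-3.53, adjusted p = 0.14) and with the replicate number as a block (-3.46, adjusted p = 0.0635), though neither passed.

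Gma.8437.1.S1_at for CDPK had 6.11, 6.62 and 6.62 against 8.24 and 8.58. Here too the pollen arrays were the lower ones throughout. CDPK fell by 1.96 (standard error 0.23, adjusted p = 0.00395 from limma), or 3.89-fold, from 8.41 ± 0.24 (SD, n = 2) to 6.45 ± 0.29 (SD, n = 3). With weighted arrays the difference was -1.84 and did not pass (adjusted p = 0.193), and it fell by only 0.61 (adjusted p = 0.0305) after quantile normalization. The ratio of CDPK-BETA to CDPK-GAMMA within an array was -4.31 ± 1.15 (SD, n = 2) for sporophytic tissues but 6.96 ± 0.31 (SD, n = 3) for pollen, a shift of 11.27 log2 units. This size depends on dim values, since CDPK-BETA in sporophytic tissues and CDPK-GAMMA in pollen were both under a signal of 100. That of CDPK to CDPK-GAMMA moved by 1.58.

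**Figure D3:**
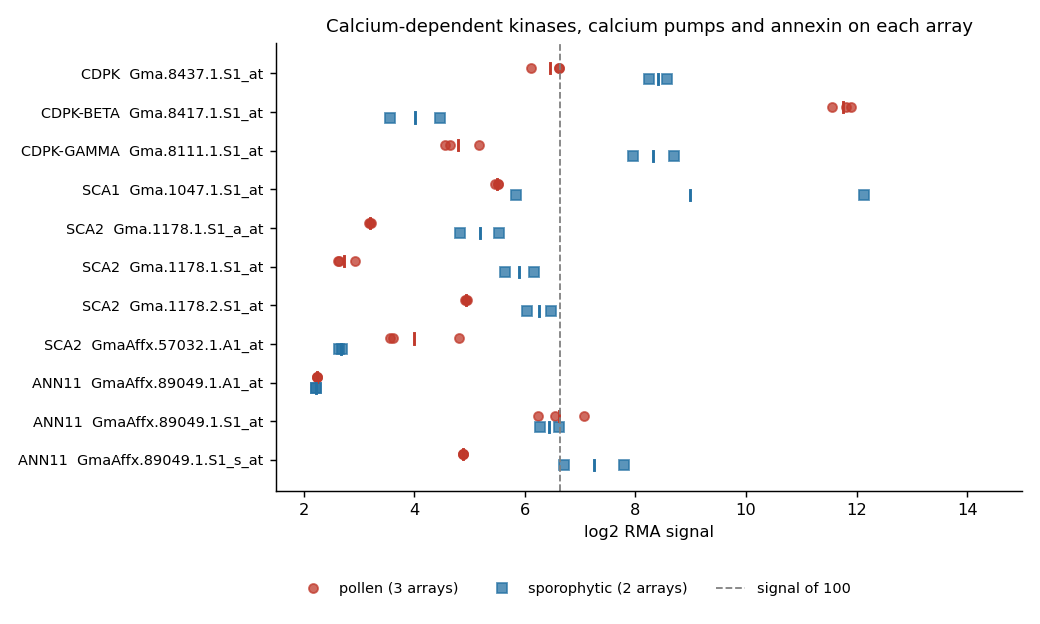
Log2 RMA signal (horizontal axis) of the 3 kinase probe sets, the 5 probe sets of the calcium pumps SCA1 and SCA2 and the 3 probe sets of the annexin ANN11, with pollen arrays as red circles (n = 3), sporophytic arrays as blue squares (n = 2), means as short bars and a signal of 100 as a dashed line. CDPK-BETA is at 11.55 to 11.90 in pollen and under the line in sporophytic tissues, and the SCA1 values of the 2 sporophytic arrays lie at 12.14 and 5.85.

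Other genes of calcium signalling with a symbol of their own were few. Pumps and an annexin were found, with 8 probe sets for 3 genes, while calmodulin-like proteins, calcineurin B-like sensors and their kinases, calcium exchangers, channels and NADPH oxidases had no probe set under the symbols searched. Of the 8 probe sets, 4 were lower in pollen, 0 were higher and 4 did not pass (limma), near the 53.4% called in all over the array (34.5% lower and 18.9% higher). At an unadjusted p under 0.05, 4 were lower and 1 was higher, beside 13828 and 8298 of all 37593 probe sets. Their median difference was -1.65. After quantile normalization 2 were lower and 1 was higher, beside 26.4% and 37% of all probe sets. With equal medians 3 were lower and 3 higher, beside 26.2% and 53.3%. With the replicate number as a block 1 was lower and 0 were higher, beside 8634 and 3511 of 37593. Signals on the pollen arrays lay between 2.24 and 7.08, so this group was dim in pollen. Sporophytic signals reached 12.14.

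SCA2, a calcium pump, was lower in pollen on 3 of its 4 probe sets. It fell by 3.17 on Gma.1178.1.S1_at (adjusted p = 8.46e-04 from limma), it fell by 1.98 on Gma.1178.1.S1_a_at (adjusted p = 0.00446) and it fell by 1.33 on Gma.1178.2.S1_at (adjusted p = 0.00385), where quantile normalization turned the sign (0.13, adjusted p = 0.315). The fourth, GmaAffx.57032.1.A1_at, had 4.82, 3.62 and 3.57 in pollen against 2.65 and 2.69, a difference of 1.33 the other way that did not pass (adjusted p = 0.0835) except without pollen replicate 1 (0.92, adjusted p = 0.00507) or with equal medians. All 4 stayed below a signal of 100 on all arrays. SCA1, a plasma membrane calcium pump that binds calmodulin and responds to salt stress in soybean, had 5.47, 5.51 and 5.51 in pollen and 12.14 and 5.85 in sporophytic tissues. Its difference of -3.50 had a 95% interval from -9.33 to 2.33 and did not pass (adjusted p = 0.233), since 1 sporophytic array stood near pollen and the other far above it. Without sporophytic replicate 1 the difference was -0.35 and without replicate 2 it was -6.64. ANN11 was lower on GmaAffx.89049.1.S1_s_at (4.89, 4.89 and 4.89 against 7.79 and 6.71, adjusted p = 0.00841), though not after quantile normalization (-0.84, adjusted p = 0.143). It differed by 0.18 and 0.02 on its other probe sets, which did not pass on the deposited scale. The symbol CRK stood for 4 further probe sets, of which CRK5 fell by 4.06 (adjusted p = 0.0013) and the others did not pass, and as it names different kinase families they were left out of the counts.

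**Figure D4:**
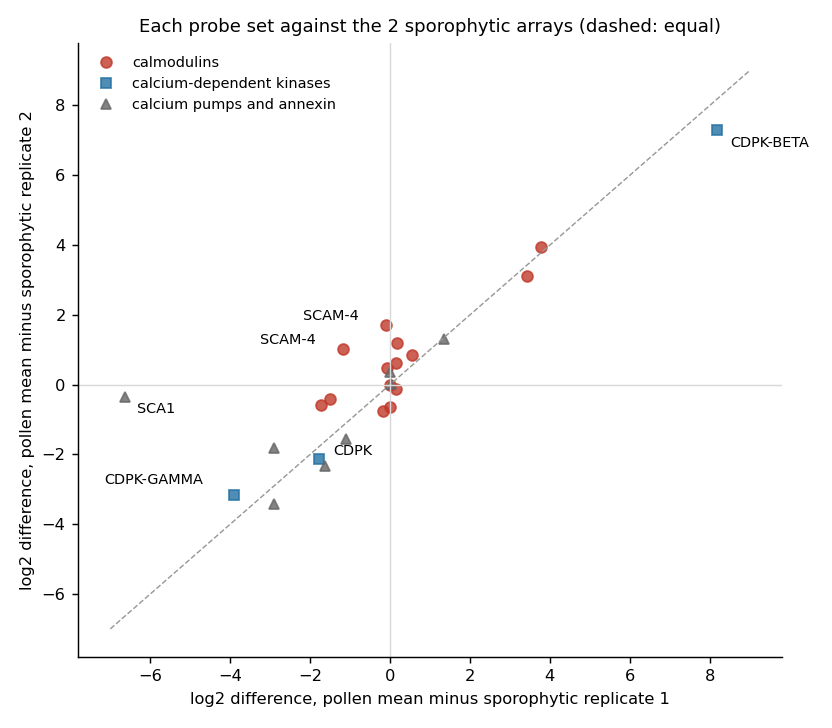
Difference of the pollen mean from sporophytic replicate 1 (horizontal axis, log2) and from sporophytic replicate 2 (vertical axis, log2) for the calmodulins (red circles), kinases (blue squares), and calcium pumps and annexin (grey triangles), with equal differences on the dashed line. The kinases and SCAM-1 keep their sign against either array, while the SCAM-4 probe set with -1.17 and 1.01 changes it and SCA1 is 6.29 apart between the arrays.

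The replicate arrays of the sporophytic tissues differed in several of these genes. SCAM-4 was brighter on replicate 1 by 2.18 and 1.79, SCAM-3 by 1.15 and 1.08 on 2 of its 3 probe sets and SCA1 by 6.29. For CDPK-BETA replicate 1 minus replicate 2 was -0.90 and for CDPK-GAMMA it was 0.73. Of the 17 calmodulin and kinase probe sets, 10 were brighter on replicate 1. The green tissue marker CAB3 was brighter on replicate 1 on its 3 lower probe sets, at 15.19, 14.23 and 14.88 against 11.98, 12.61 and 13.74, while another was dimmer there by a difference of -1.33 and the last was alike (2.31 and 2.30). How far the organ mixture differed between these replicates was not tested.

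The number of higher calls among the 17 rose with the scale, as it did over the whole array. After quantile normalization over the soybean probe sets 8 of the 17 were higher and 2 lower, beside 37% and 26.4% of all probe sets. With equal array medians 12 were higher and 2 lower, beside 53.3% and 26.2%. The 2 lower were CDPK and CDPK-GAMMA in each case, and both SCAM-1 probe sets and CDPK-BETA were higher in each. Among all probe sets the lower share of the calls moved from 64.6% to 41.7% and 32.9%, and the median difference from -0.22 to 0.12 and 0.93. Under equal medians all 5 SCAM-2 probe sets were higher, with differences of 0.83 to 1.84, and the SCAM-3 values of -1.14, -0.96 and -0.46 became 0.00, 0.19 and 0.68, of which only the last passed (adjusted p = 0.0317, limma). As equal medians add 1.15 to each difference, they turn every value between -1.15 and 0. Over all 11 other fits, 3 of the 5 SCAM-2 probe sets stayed above 0 (0.16 to 1.53, 0.54 to 1.84 and 0.17 to 1.84), and those of SCAM-1 and the kinases kept their sign. Both probe sets of SCAM-4 and of SCAM-5 changed sign with the sporophytic array left out.

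**Figure D5:**
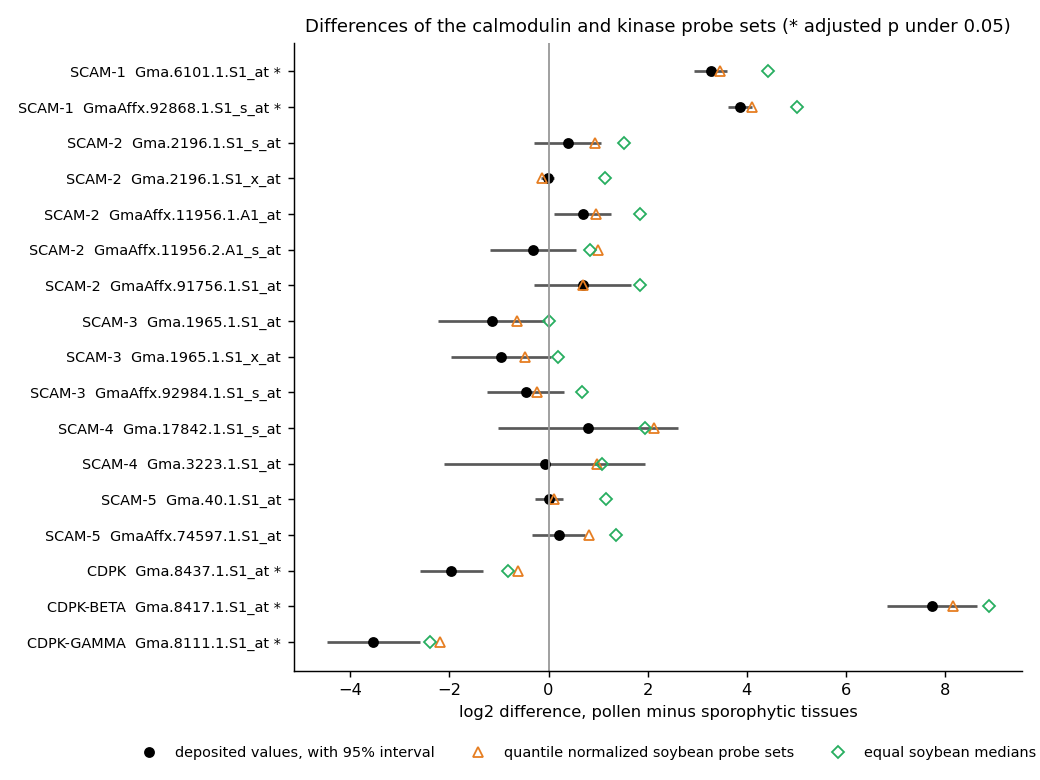
Log2 difference between pollen and sporophytic tissues (horizontal axis) of the 17 probe sets with the deposited values (black, with 95% interval from limma), after quantile normalization of the soybean probe sets (orange triangles) and with equal array medians (green diamonds), with an asterisk at the 5 called probe sets. CDPK-BETA lies at 7.74, 8.15 and 8.89 and CDPK-GAMMA at -3.54, -2.18 and -2.39, while SCAM-3 moves to 0 or above with equal medians.

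The study's own annotation names more probe sets of these families than the symbols searched above. They were listed by the study as higher or lower in pollen on the same arrays, so their direction is fixed by the choice and the values are given as a description only. Besides CDPK-BETA, 8 probe sets annotated as calcium-dependent kinases were listed as higher, with differences between 2.17 and 11.34. The kinase GmaAffx.80188.1.A1_at, matched to a chickpea isoform, had 13.91, 14.13 and 14.07 in pollen against 2.70 and 2.69. A match to CPK7 had 12.32, 12.03 and 12.11 against 2.69 and 2.78, and a match to CPK28 had 13.27, 13.67 and 13.69 against 7.13 and 7.86. The 2 matches to CPK6 differed least, by 2.26 and 2.17, and both were bright in sporophytic tissues as well (7.71 to 10.23). CDPK-BETA, at 7.74, thus lay within the range of these kinases.

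Sensors and partners of calmodulin were listed in both directions. Besides SCAM-1, 7 probe sets of calcium sensors were listed as higher, with a median difference of 8.43. Among them GmaAffx.78815.1.S1_at and GmaAffx.90753.1.S1_at, each annotated as a putative calmodulin, differed by 7.35 and 8.43. A match to the EF-hand protein MSS3 had 14.13, 14.19 and 14.26 in pollen against 5.91 and 4.90. NPG1, a calmodulin-binding protein that Arabidopsis pollen needs to germinate, had 11.04 ± 0.07 (SD, n = 3) against 4.33 ± 0.46 (SD, n = 2). ACA9, a calcium pump of the pollen tube membrane in Arabidopsis, had 14.14, 14.34 and 14.40 against 6.96 and 7.35, and in this it stood opposite to the pump SCA2. Of the calmodulin-binding proteins listed as lower, a match to the glutamate decarboxylase GAD, which makes the signalling molecule GABA, had 3.63, 3.46 and 3.67 in pollen against 9.35 and 9.86. A match to the membrane protein MLO1 had 2.59, 2.64 and 2.62 against 7.76 and 7.46. Not all of the lower list was analysed here, so the counts in the 2 directions cannot be set against each other.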

How the data were processed

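RNA of 3 pollen and 2 sporophytic samples was measured on the Affymetrix soybean array. The authors imported the raw signals into AffylmGUI and normalized them by RMA, and the deposited log2 signals of the soybean probe sets were used here as they stand; the software versions are not given in the sources used here. Scanner files were not used here. Members were taken by gene symbol from the platform annotation, and all 8 genes were found in the gene table of assembly Glycine_max_v4.0. A probe set ending in _s_at, _x_at or _a_at can take signal from several transcripts, which held for 7 of the 17. The study's lists supplied names and, for the last genes described, the choice of probe sets and their direction; its fold changes and p-values were not used.

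The 2 groups were fitted in limma 3.58.1 (R 4.3.3) with lmFit and eBayes, with 3 residual and 0.854 prior degrees of freedom and a prior variance of 0.0107; p-values are two-sided and adjusted by Benjamini-Hochberg over all soybean probe sets at 0.05, with no filter on dim probe sets. As a measure of depth, 18.4 to 35.9% of the probe sets reached a signal of 100 on an array; the number of arrays limits the precision. Contrasts between genes used exact permutation (scipy 1.17.1). The study's methods call the samples biological replicates, and the labels give replicate numbers only. Of these steps, only the limma fit of the 2 groups was tested on simulated data. The members, lists and alternatives were chosen with earlier results of these data known. Named genes are all members, up to 3 called probe sets of each calcium list with the largest differences, and others chosen after their values were seen. Figures were drawn with matplotlib 3.10.9.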

Additional observations from a re-analysis of the deposited data

How the results depend on the processing

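Each result was recomputed with other scalings, a signal filter, array weights, a replicate block, an intensity trend, another threshold, a fold minimum, other choices of probe sets and each array left out. SCAM-1 and CDPK-BETA passed with the same sign in all 11 other fits, and CDPK and CDPK-GAMMA kept their sign in all 11. Among the 17 probe sets, 8 were higher after quantile normalization and 12 with equal medians, beside 37% and 53.3% of all. When only bright probe sets were tested (signal 100 or more, 12 left), 4 were lower and 4 higher, beside 8123 and 3682 of 13590. With array weights 0 were lower, as both lower kinases were lost, beside 8350 of 37593. With the replicate block 1 was lower, beside 8634 of 37593. Leaving out 1 array gave 3 to 7 higher and 2 to 6 lower, most without sporophytic replicate 1 (7 and 5) and replicate 2 (4 and 6). The fits without a sporophytic replicate leave 1 sporophytic array, which is assumed to vary like the pollen arrays. No conclusion is drawn from their counts, and more of all probe sets were called in these fits too. Without 1 pollen array, 3 to 4 of the 17 were higher and 2 lower, beside 4824 to 6134 and 10656 to 11112 of all. Of the 8 pump and annexin probe sets, 1 was higher and 2 were lower after quantile normalization, beside 37% and 26.4% of all. With equal medians 3 were higher, beside 53.3%. With the signal filter 1 was lower (of 1 left), beside 8123 of 13590, and with the replicate block 1, beside 8634 of 37593. Leaving out 1 pollen array gave 0 to 1 higher and 4 lower, beside 4824 to 6134 and 10656 to 11112 of all. The cause was not tested.

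The sign turned for 9 calmodulin probe sets, none of them called on the deposited values. Equal medians add 1.15 to every difference, so they turn all values just below 0 by construction. With them SCAM-2 gave 1.14 (Gma.2196.1.S1_x_at) and 0.83 (GmaAffx.11956.2.A1_s_at), SCAM-3 gave 0.00, 0.19 and 0.68, and SCAM-4 gave 1.07 (Gma.3223.1.S1_at). With quantile normalization the second and the last of these gave 1.00 and 0.98. Without single arrays, SCAM-2 ranged from -0.02 to 0.00 (Gma.2196.1.S1_x_at) and from -0.65 to 0.01 (GmaAffx.11956.2.A1_s_at), SCAM-4 from -0.10 to 1.70 (Gma.17842.1.S1_s_at) and from -1.17 to 1.01 (Gma.3223.1.S1_at), and SCAM-5 from -0.13 to 0.15 (Gma.40.1.S1_at) and from -0.07 to 0.49 (GmaAffx.74597.1.S1_at). SCA2 Gma.1178.2.S1_at gave 0.13 with quantile normalization, and ANN11 GmaAffx.89049.1.S1_at gave -0.05 with the replicate block and -0.05 to 0.37 without single arrays.

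Whether a shared replicate number pairs samples is not stated. Deviations of arrays with a shared number correlated at 0.024 for replicate 1 and 0.016 for replicate 2. With the replicate block 3 of the 17 were higher and 1 was lower, the change being CDPK-GAMMA, and over all probe sets 3511 were higher and 8634 lower, against 7104 and 12969. Other counts over all probe sets that moved by over 1.5 times were 13917 and 20047 higher under quantile and equal-median scaling, 4306 higher at an adjusted p under 0.01, 2182 higher and 8350 lower with array weights, and 3682 higher and 8123 lower of 13590 bright probe sets. Low signal limits SCAM-4, SCAM-5 and SCA2, and the small number of arrays limits every interval. Of the 17 probe sets, 10 and 11 reached a signal of 100 in pollen and sporophytic tissues, and 12 and 11 under both other scalings, which were chosen for this count after seeing the data.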
